A study of Mus musculus with 12 samples.

Results

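Oxidative phosphorylation genes were followed by complex in mouse leukemia with and without Rictor. The genes were all those whose symbol starts with Nduf, Uqcr, Cox4, Cox5, Cox6, Cox7, Cox8 or Atp5, together with Sdha, Sdhb, Sdhc, Sdhd and Cycs, each read through the brightest of its probe sets annotated with a single gene symbol. This gave 91 of 18194 genes on the array, of which 83 encode subunits or cytochrome c and 8 are Ndufaf assembly factors of complex I. Of the 91 genes, 88 passed the filter on dim genes and were tested among 12582 genes. The 3 below it were Ndufb4, Cox7b2 and Cox8b. Ndufb4, a complex I subunit, was dim only through its own probe set, and a probe set that it shares with Ndufb4b and Ndufb4c had a geometric mean intensity of 544. Cox7b lacks a probe set annotated with that symbol alone, and Ndufs6 and Ndufa11 are read only by probe sets shared with another gene, so these 3 were not analysed here.

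The respiratory chain passes electrons from NADH through complex I, and from succinate through complex II, to ubiquinone, then through complex III and cytochrome c to oxygen at complex IV. Complexes I, III and IV pump protons across the inner mitochondrial membrane, and complex V, the ATP synthase, uses their return to make ATP. Most subunits are encoded in the nucleus and the others in mitochondrial DNA. Leukemic stem and progenitor cells are known for their reliance on this pathway, and Rictor is the defining subunit of mTOR complex 2, a kinase that acts on AKT.

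RNA of sorted leukemia cells was hybridised to 12 Affymetrix arrays in 4 groups of 3: MLL-AF9 RictorΔ/Δ, MLL-AF9 Control, MLL-NRIP3 RictorΔ/Δ and MLL-NRIP3 Control. The fusion oncogene MLL-AF9 or MLL-NRIP3 drives the leukemia, and the Control cells are Rictor wild type. All 4 groups are K+G– bone marrow leukemia cells, sorted after a first transplantation once CD45.2+ cells passed 50% of blood leukocytes in the recipients, although the labels also list peripheral blood as the host tissue. The labels spell out neither K nor G, do not name the Cre or the method of deletion, and do not state that each array is a mouse of its own, so that the p-values cover the spread of these hybridisations and no more.

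Several facts of the arrays precede the results. The deposited values are linear intensities, and those of the 2 models have different distributions (array medians of 8.16 to 8.36 in MLL-AF9 and 13.6 to 14.2 in MLL-NRIP3), so no level was compared between the models. Values belong to probe sets and were not compared between genes either. Rictor itself averaged 87.5 ± 9.26 in MLL-AF9 RictorΔ/Δ and 86.8 ± 4.80 in MLL-AF9 Control cells, and 104 ± 18.6 in MLL-NRIP3 RictorΔ/Δ and 113 ± 26.0 in MLL-NRIP3 Control cells (SD, n = 3 each); which exon its probe set reads is not known here, so this checks neither label. Ptprc, which encodes CD45, differed by 0.03 and -0.02 on the log2 scale in the 2 models. In MLL-AF9 the groups differ in sex, since Xist averaged 98.5 in RictorΔ/Δ and 2387 in Control arrays. MLL-NRIP3 Control arrays 1 and 2 stood apart, with spiked hybridization controls at 11.2 and 10.6 log2 units against 9.38 to 9.59 on the other 4 arrays of that model, and with Gapdh 5′ to 3′ signal ratios of 0.562 and 0.738 against 0.881 to 0.965. For MLL-NRIP3 the counts of calls, the called genes and the medians of the complexes are therefore also given without those 2 arrays. In bulk RNA, a different mix of cells and a different amount of RNA per cell cannot be told apart.

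Promoters show what these genes share outside the arrays. RefSeq promoter windows (assembly GRCm38.p6, 300 bases around the start) were at hand for 75 of the 91 genes, in 80 windows. The best-known regulators of the nuclear genes of this pathway are nuclear respiratory factor 1, the ETS factor GABP and YY1. The 6 strings searched, on both strands, were the NRF1 core GCGCATGC, the ETS core CCGGAAG, its longer form CCGGAAGT, the YY1 core AAGATGG, the GC box GGGCGG and the TATA box TATAAA. The NRF1 core was in 12 windows (15.0%), against 2.71% of 32851 windows of all genes. The ETS core was in 23.8% against 8.86%, its longer form in 6.25% against 3.89%, and the YY1 core in 13.8% against 6.34%. The GC box was in 46.2% against 35.7% and the TATA box in 11.2% against 13.6%. The strings were chosen from general knowledge of such promoters and those put in capitals were picked after their counts were seen; longer NRF1 and YY1 strings were also counted and are not given. A match is a string of letters, not a shown binding site.

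The windows of 4 genes follow, each the 180 bases before the start, written 5′ to 3′ on the minus strand, with matches of the NRF1 and ETS cores in capitals. Cox6a1 and Ndufa4 are shown because their changes in MLL-NRIP3 had the smallest adjusted p-values of the 88 genes tested. Cycs is shown as the gene of cytochrome c, and Atp5k as an ATP synthase gene with overlapping NRF1 cores on both strands.
Cox6a1, chr5:115348959-115349138: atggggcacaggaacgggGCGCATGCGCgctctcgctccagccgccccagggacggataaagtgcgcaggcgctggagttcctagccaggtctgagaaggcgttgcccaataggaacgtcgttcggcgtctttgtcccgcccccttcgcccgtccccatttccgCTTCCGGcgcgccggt
Ndufa4, chr6:11907451-11907630: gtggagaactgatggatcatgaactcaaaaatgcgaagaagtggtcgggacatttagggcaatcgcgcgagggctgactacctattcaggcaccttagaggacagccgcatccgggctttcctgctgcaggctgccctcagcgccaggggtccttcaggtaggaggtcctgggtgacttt
Cycs, chr6:50566570-50566749: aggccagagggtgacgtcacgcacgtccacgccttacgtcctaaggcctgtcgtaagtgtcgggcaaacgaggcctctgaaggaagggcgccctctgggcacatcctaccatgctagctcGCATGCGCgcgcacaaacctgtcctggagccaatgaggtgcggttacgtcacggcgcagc
Atp5k, chr5:108434400-108434579: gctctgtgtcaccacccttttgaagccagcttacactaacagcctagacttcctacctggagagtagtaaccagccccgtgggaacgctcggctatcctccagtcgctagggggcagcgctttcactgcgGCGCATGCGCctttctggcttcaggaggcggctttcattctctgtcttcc
The Cox6a1 window holds NRF1 cores on both strands, overlapping from 162 bases before the start, and an ETS core 16 bases before it. The Cycs window holds the NRF1 core on the opposite strand 60 bases before the start, and in Atp5k the overlapping cores begin 50 bases before it. The 180 bases of Ndufa4 hold neither core.

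The first comparison asks what loss of Rictor did in MLL-AF9 leukemia. None of the 88 genes tested was called (limma over all 12 arrays, Benjamini-Hochberg adjusted p under 0.05 over all genes tested), against 1.38% of all genes, that is 174 of 12582. One of the 88 had an unadjusted p under 0.05, against 8.66% of all genes. The log2 changes ran from -0.14 for Uqcrh, the hinge protein of complex III, to 0.27 for Ndufv3, an accessory subunit next to the flavoprotein of complex I, with a median of 0.01 and 46 of 88 above 0. Over all genes the median was -0.01 and 45.7% were above 0. The 95% confidence interval lay within 0.5 log2 units of 0, a 1.41-fold change, for 85 of the 88 genes.

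By complex, the median log2 change in MLL-AF9 was 0.03 for complex I (33 genes), -0.01 for its 8 assembly factors, -0.07 for complex II (4 genes), -0.04 for complex III (8 genes), 0.00 for complex IV (17 genes) and 0.04 for complex V (17 genes). Complex II had all of its subunits on the same side: Sdha, Sdhb, Sdhc and Sdhd, the flavoprotein, the iron-sulfur protein and both membrane anchors of succinate dehydrogenase, ranged from -0.12 to -0.02, and none was called. Cycs differed by 0.05 ± 0.09 (SE). The 3 arrays of one group lay wholly above those of the other for 13 genes, 6 higher in RictorΔ/Δ (background 11.3% of all genes) and 7 lower (background 15.7%).

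**Figure D1:**
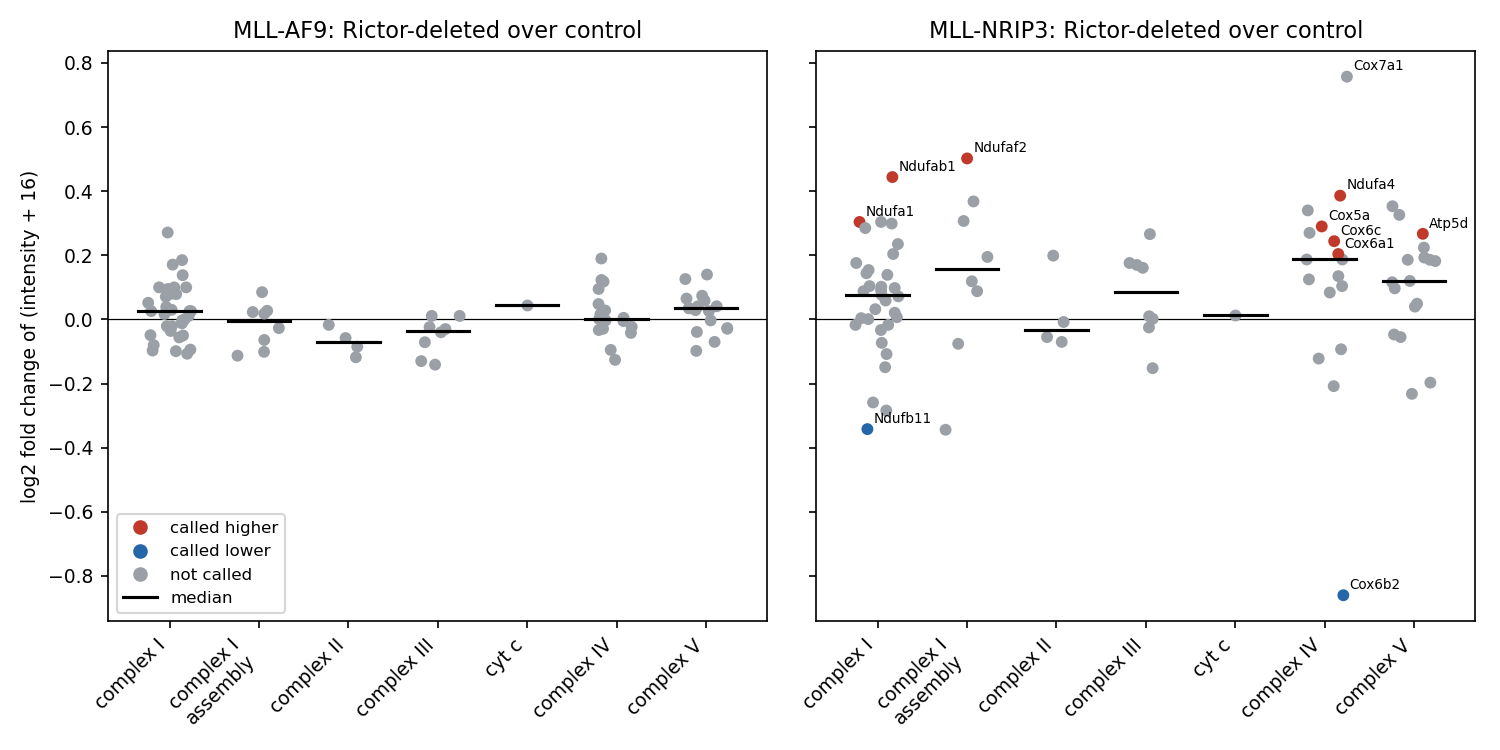
Log2 fold change of (intensity + 16), RictorΔ/Δ over Control, for each of the 88 genes tested (points) by complex, in MLL-AF9 (left) and MLL-NRIP3 (right), with bars at the medians and called genes in colour. The MLL-AF9 points lie between -0.14 and 0.27 with none called, and the MLL-NRIP3 points lie between -0.86 and 0.76 with 10 called.

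Ndufv3 had the largest change of the 88 genes in MLL-AF9. Its intensity was 815, 813 and 734 in RictorΔ/Δ arrays, against 634, 643 and 670 in Control arrays, and the groups did not overlap. The change of 0.27 ± 0.11 (SE) had an adjusted p of 0.42 in limma over all arrays. In limma over the 6 MLL-AF9 arrays alone the adjusted p was 0.014, the single call among the 88 genes, where 8.26% of all genes were called; 7 of the 88 had an unadjusted p under 0.05, against 21.8% of all genes. Ndufv3 ran the other way in MLL-NRIP3, with 995, 1046 and 759 in RictorΔ/Δ arrays against 1222, 1107 and 1064 in Control arrays, and again the groups did not overlap. The difference between the responses, -0.55 in MLL-NRIP3 minus MLL-AF9, had an adjusted p of 0.059 in limma and was not called.

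Both X-linked members are of interest because the MLL-AF9 groups differ in sex. Ndufa1, a complex I membrane-arm subunit, was 1621, 1596 and 1623 in RictorΔ/Δ arrays against 1655, 1654 and 1604 in Control arrays of MLL-AF9. Ndufb11, another subunit of that arm, was 1603, 1591 and 1556 against 1636, 1681 and 1599. The groups overlapped for both genes. Their log2 changes were -0.02 ± 0.08 and -0.05 ± 0.09 (SE).

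Other genes did move in the same MLL-AF9 arrays, where 1.38% of all genes were called over all arrays and 8.26% over the MLL-AF9 arrays alone. All 20 tested mature neutrophil genes were higher in RictorΔ/Δ cells and 11 were called, with a median log2 change of 1.79, while the summed intensity of the 20 genes was 36780 to 40310 in RictorΔ/Δ and 11260 to 16470 in Control arrays. All 19 tested G2/M cell cycle genes had changes above 0, with a median of 0.23, and none was called by the fit over all arrays, while 7 were called higher over the MLL-AF9 arrays alone. Of 7 tested mast cell and eosinophil genes, the eosinophil granule genes Prg2 and Prg3 were called lower, at -1.62 and -2.14 (adjusted p 0.02 and 0.00059 in limma). Of the 7 changes 3 were above 0, up to 0.09. The list's summed intensity was 581 to 765 in RictorΔ/Δ and 1388 to 1480 in Control arrays. The summed intensity of the 91 oxidative phosphorylation genes was 68860 to 70240 in RictorΔ/Δ and 67340 to 70340 in Control arrays, so these sums overlapped. The part of cell mix and of sex in the values above was not tested.

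**Figure D2:**
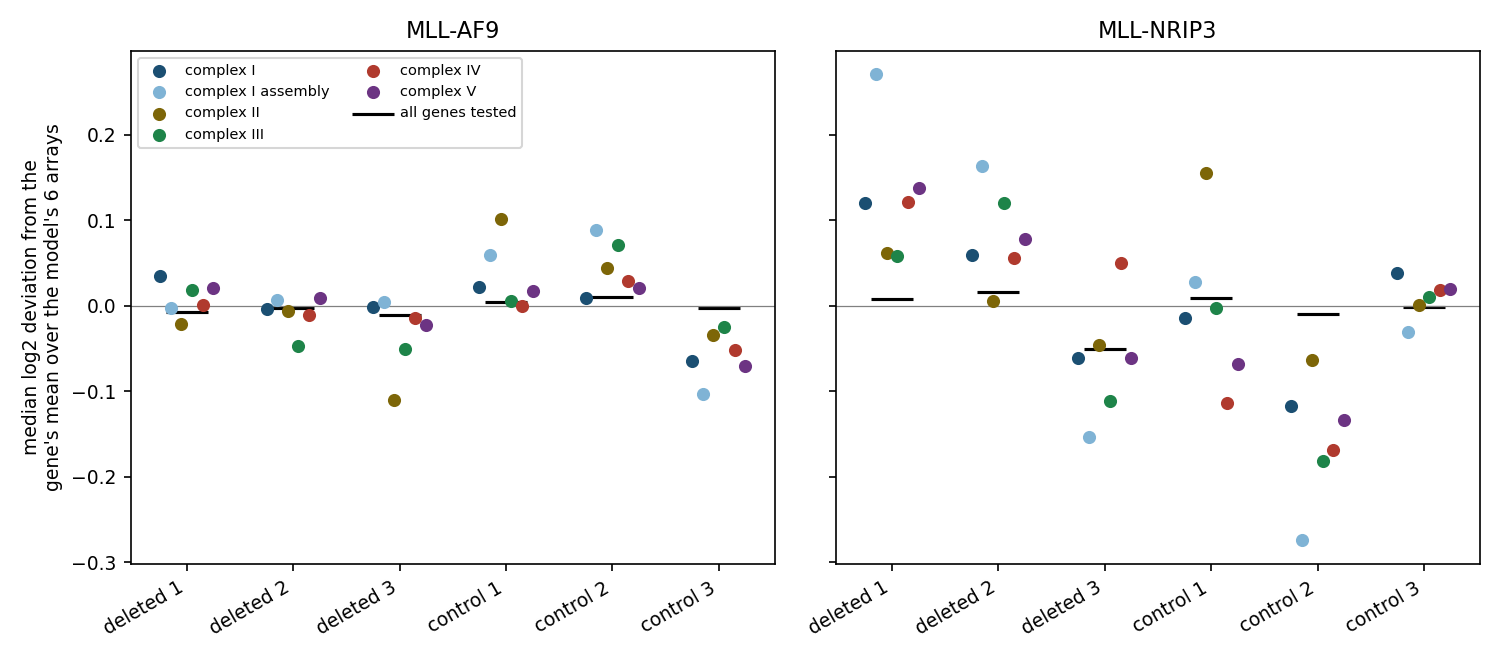
Median log2 deviation of each complex's tested genes from the gene's mean over the model's 6 arrays (y axis), for each array (x axis); the black bar is the median of all genes tested. In MLL-NRIP3 the members' median was 0.12 and 0.07 on RictorΔ/Δ arrays 1 and 2 and -0.14 on Control array 2, while RictorΔ/Δ array 3, at -0.06, lay below Control array 3, at 0.02.

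The second comparison asks the same in MLL-NRIP3 leukemia. Here 10 of the 88 genes were called, 8 higher and 2 lower, which is 11.4% against 13.7% of all genes (5.95% higher and 7.76% lower), a share no larger than the background. The 8 that rose were Ndufa4, Cox6a1, Cox6c and Cox5a of complex IV, Ndufab1 and Ndufa1 of complex I, the assembly factor Ndufaf2 and Atp5d of complex V. Ndufb11 of complex I and Cox6b2, a testis isoform of a complex IV subunit, fell. The median change of the 88 genes was 0.10, 64 of them were above 0 and 29 had an unadjusted p under 0.05, whereas over all genes the median was 0.00, 50% were above 0 and 29.3% had such a p.

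The calls rested on a few arrays. The MLL-NRIP3 arrays varied more than those of MLL-AF9: the median SE of the 88 changes was 0.117 from the MLL-NRIP3 arrays alone and 0.057 from the MLL-AF9 arrays alone, whereas the fit over all 12 arrays gave 0.091 in both models. That fit thus uses a smaller error in MLL-NRIP3 than its own arrays show, and a larger one in MLL-AF9. Without Control arrays 1 and 2 none of the 88 was called, against 5.8% of all genes, and their median was 0.02; that fit has a single Control array, which is assumed to vary like the other groups. With the 6 MLL-NRIP3 arrays alone none was called (smallest adjusted p 0.11 in limma), where 1.56% of all genes were, and 12 of the 88 had an unadjusted p under 0.05, against 17.7% of all genes. Leaving out 1 array at a time gave from 1 call, without Control array 2, to 26 calls, without Control array 3. Of all genes 8.83% and 24.3% were called in those fits. The 3 arrays of each group were apart for 15 genes that were higher in RictorΔ/Δ cells (background 9.7%) and for 5 that were lower (background 12.7%). Control arrays 1 and 2 were the 2 lowest of the 6 for 31 of the 88 genes (35.2%, against 14.7% of all genes) and the 2 highest for 8 (9.09%, against 16.8%).

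Complex IV, cytochrome c oxidase, held 5 of the 10 calls, which is 29.4% of its 17 genes against 13.7% of all genes and none without Control arrays 1 and 2. Its median log2 change was 0.19 over 17 genes, and 0.06 without Control arrays 1 and 2. Ndufa4, a subunit first assigned to complex I and now placed in complex IV, was 2471, 2047 and 2259 in RictorΔ/Δ arrays, against 1682, 1599 and 1888 in Control arrays. All 3 RictorΔ/Δ values lay above all 3 Control values. The increase of 0.39 ± 0.08 (SE), or 1.31-fold, had an adjusted p of 0.0094 in limma, the smallest of the 88 genes. It was 0.25 with an adjusted p of 0.17 without Control arrays 1 and 2. In MLL-AF9 the same gene was 1263, 1202 and 1203 against 1199, 1307 and 1221, with overlapping groups. The difference between the responses, 0.41, had an adjusted p of 0.064 in limma.

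Cox6a1, the common isoform of a small membrane-spanning subunit of the oxidase, was 5651, 5536 and 5130 in MLL-NRIP3 RictorΔ/Δ arrays, against 4566, 4663 and 4921 in Control arrays. The groups did not overlap, and the increase was 0.20 ± 0.05 (SE; adjusted p 0.020 in limma). It was 0.14 (adjusted p 0.22) without Control arrays 1 and 2. Its other probe set gave 0.32 (adjusted p 0.015 when every probe set was tested). In MLL-AF9 its change was 0.00. Cox6c, a small membrane subunit, was 2301, 2064 and 2178 against 1734, 1743 and 2050 in MLL-NRIP3. Cox5a, a nuclear-encoded subunit on the matrix side, was 2741, 2636 and 2535 against 1961, 2019 and 2524. For both genes Control array 3 lay close to the lowest RictorΔ/Δ array, just under it. Their increases of 0.24 and 0.29 (adjusted p 0.041 and 0.047 in limma) were 0.09 and 0.06 without Control arrays 1 and 2. The other probe set of Cox6c gave 0.15 (adjusted p 0.23 in limma when every probe set was tested). The other 2 probe sets of Cox5a gave 0.07 and 0.08. Cox4i1, the common isoform of the regulatory subunit that binds ATP, was 2646, 2544 and 2534 against 2152, 2142 and 2499, with groups apart, but was not called, at 0.19 (adjusted p 0.079).

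**Figure D3:**
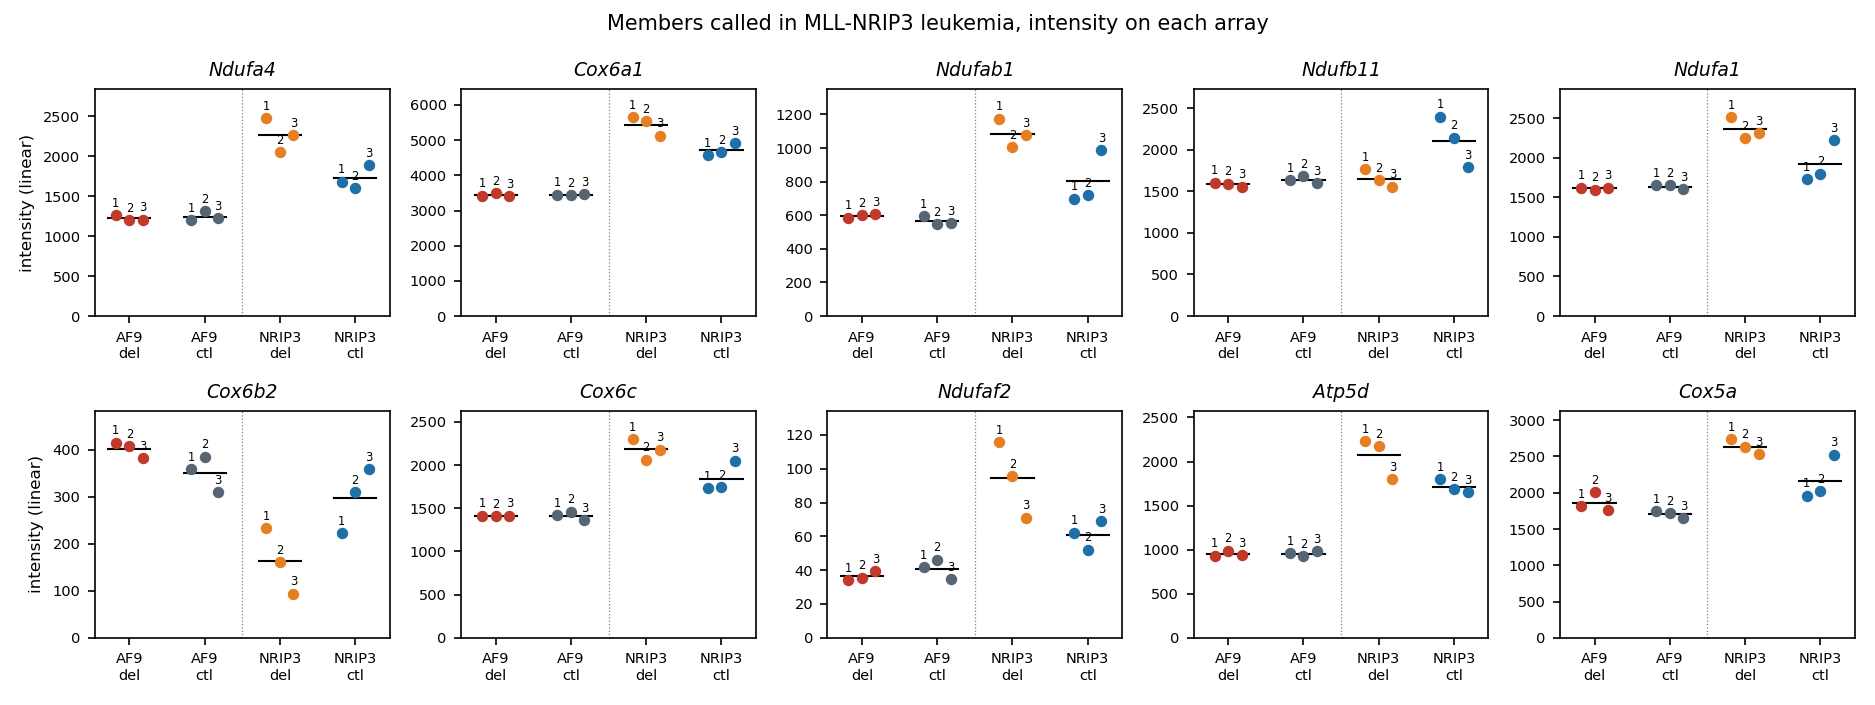
Linear intensity (y axis) on each of the 12 arrays for the 10 genes called in MLL-NRIP3, by group (del, RictorΔ/Δ; ctl, Control), with array numbers above the points and bars at the group means; levels of the 2 models are not on 1 scale. In 9 of the 10 genes, picked by their calls on these same arrays, the MLL-NRIP3 groups do not overlap, which is no separate support. Over all genes the groups were apart for 9.7% (higher) and 12.7% (lower). In Cox6b2, RictorΔ/Δ array 1 (233) lies above Control array 1 (222).

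Complex IV also has isoforms that are largely restricted to other tissues. Cox6b2 was 233, 161 and 94.1 in MLL-NRIP3 RictorΔ/Δ arrays, against 222, 310 and 358 in Control arrays. The lowest Control array lay below the highest RictorΔ/Δ array, so the groups overlapped. The decrease of -0.86 ± 0.24 (SE) had an adjusted p of 0.033 in limma, and -1.15 with 0.061 without Control arrays 1 and 2. In MLL-AF9 Cox6b2 was 415, 407 and 382 in RictorΔ/Δ arrays against 358, 385 and 310 in Control arrays, a change of 0.19. The difference between the responses, -1.05, was not called (adjusted p 0.11 in limma). Its common counterpart Cox6b1 differed by 0.19 in MLL-NRIP3 and 0.03 in MLL-AF9, and was called in neither.

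Cox7a1, the heart and skeletal muscle isoform of subunit VIIa, had the largest positive change among the genes not called. It was 58.6, 46.9 and 7.45 in MLL-NRIP3 RictorΔ/Δ arrays against 16, 10.8 and 10.5 in Control arrays. RictorΔ/Δ arrays 1 and 2 were high and array 3 was below every Control array, and the change of 0.76 ± 0.30 (SE) had an adjusted p of 0.12 in limma. In MLL-AF9 all 6 arrays lay between 4.55 and 6.22. Ndufa4l2, a hypoxia-induced paralog of Ndufa4, was 23.4, 24.1 and 27.5 against 20.8, 20.2 and 23.0 in MLL-NRIP3, with groups apart and an adjusted p of 0.22. Cox4i2, the lung isoform, Cox6a2, a muscle isoform, and Cox8c, a testis isoform, had overlapping groups in both models. Cox7b2 and Cox8b were below the filter on dim genes, with 2.79 to 10.3 over all 12 arrays.

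**Figure D4:**
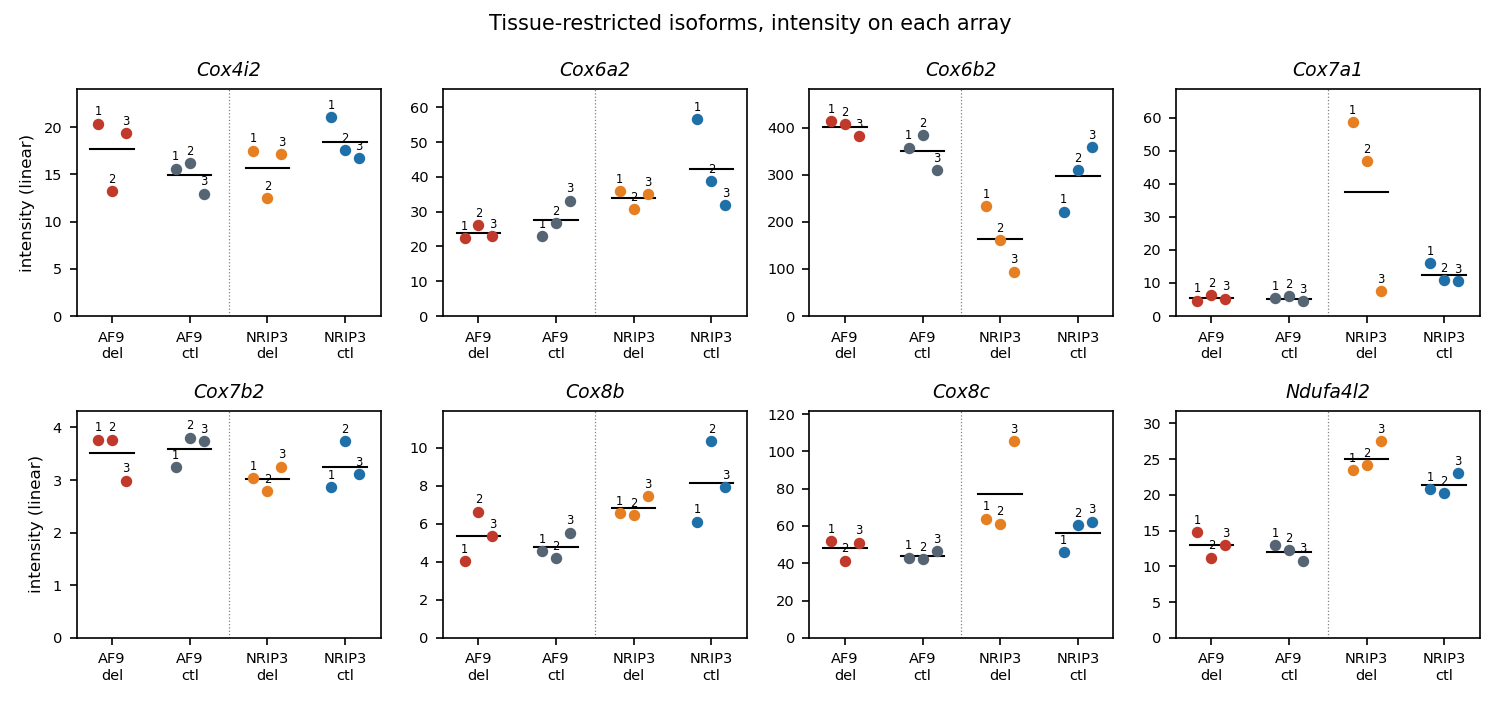
Linear intensity (y axis) on each of the 12 arrays for the 8 tissue-restricted isoforms among the genes, by group (del, RictorΔ/Δ; ctl, Control), with array numbers above the points and bars at the group means; levels of the 2 models are not on 1 scale. Cox6b2 is the single call, in MLL-NRIP3, and Cox7a1 is high on 2 of the 3 MLL-NRIP3 RictorΔ/Δ arrays.

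Complex I, the NADH dehydrogenase, had a median change of 0.08 over 33 genes in MLL-NRIP3, with 2 called higher and 1 lower (9.09%, against 13.7% of all genes). Without Control arrays 1 and 2 its median was 0.02, with 18 of 33 above 0. Ndufab1, the mitochondrial acyl carrier protein that is also a complex I subunit, was 1175, 1005 and 1077 in RictorΔ/Δ arrays, against 699, 721 and 987 in Control arrays. Ndufa1 was 2517, 2250 and 2313 against 1732, 1801 and 2222. In both genes Control arrays 1 and 2 were low and Control array 3 was just below the RictorΔ/Δ arrays. The increases of 0.44 ± 0.11 and 0.30 ± 0.08 (SE; adjusted p 0.023 and 0.032 in limma) were 0.13 and 0.08 without Control arrays 1 and 2. Ndufab1 has a pseudogene copy on this array, so its value is uncertain to that extent. Its 3 other tested probe sets, all dimmer, gave 0.15, -0.16 and 0.09, none called, and the average over its probe sets gave 0.12 (adjusted p 0.33). Ndufb11 ran the other way, with 1761, 1634 and 1553 against 2394, 2145 and 1785. Its change of -0.34 ± 0.09 (SE; adjusted p 0.027 in limma) was -0.12 without Control arrays 1 and 2, and its other probe sets gave -0.26 and -0.25.

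None of the 6 core subunits of complex I measured here, which belong to the conserved electron-transfer arm, was called in MLL-NRIP3. Their changes ran from -0.26 for Ndufs7, which holds the cluster next to ubiquinone, to 0.20 for Ndufs1, the largest subunit. Ndufs7 was 587, 582 and 557 in RictorΔ/Δ arrays against 827, 635 and 628 in Control arrays. Its groups were apart, with an adjusted p of 0.11 in limma. Its other probe set went the other way, at 0.16. Without Control arrays 1 and 2 the changes were -0.12 for Ndufs7 and 0.19 for Ndufs1. The 27 accessory subunits tested had a median of 0.08.

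Among the 8 assembly factors of complex I, Ndufaf2, a chaperone for a late step of assembly, was called in MLL-NRIP3. It was 116, 95.8 and 71.0 in RictorΔ/Δ arrays against 62.1, 52.1 and 68.9 in Control arrays, and the highest Control array lay just below the lowest RictorΔ/Δ array. The increase was 0.50 ± 0.15 (SE; adjusted p 0.042 in limma), and 0.36 with 0.38 without Control arrays 1 and 2. Ndufaf7, a mitochondrial methyltransferase, was at the other end of the list with -0.34 and was not called (adjusted p 0.15). The median of the 8 was 0.16, and 0.01 without those 2 arrays.

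Among the genes chosen by symbol, complexes II and III and cytochrome c had no call in MLL-NRIP3 through their brightest probe sets. Cyc1, a complex III gene whose symbol falls outside the rule, was called and is described below. The 4 subunits of complex II had a median of -0.03, and the 8 of complex III one of 0.09, or 0.03 without Control arrays 1 and 2. Sdhd, a membrane anchor, was 828, 738 and 695 in RictorΔ/Δ arrays against 512, 641 and 847 in Control arrays, and its change of 0.20 became -0.17 without Control arrays 1 and 2. Uqcrc1, a core protein of complex III, had the largest change of these 8 genes, 0.27 (adjusted p 0.12 in limma). Its change was 0.15 without Control arrays 1 and 2. Its values were 932, 1219 and 983 against 834, 818 and 931. These groups were apart by less than 1 intensity unit. Uqcrb, a subunit that helps to bind ubiquinone, was 5015, 5240 and 4400 against 4927, 4892 and 5055, with overlap. Cycs was 1794, 1617 and 1703 against 1487, 1796 and 1800, a change of 0.01 ± 0.09 (SE). A dimmer probe set of Cycs, with a geometric mean of 585, gave -0.26 (adjusted p 0.048 in limma when every probe set was tested), and another gave 0.12 (adjusted p 0.42).

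In complex V, 1 of 17 genes was called in MLL-NRIP3 through its brightest probe set (5.88%, against 13.7% of all genes). The median change was 0.12, and 0.06 without Control arrays 1 and 2. Atp5d, the delta subunit of the F1 stalk, was 2235, 2175 and 1799 in RictorΔ/Δ arrays against 1798, 1684 and 1652 in Control arrays. The lowest RictorΔ/Δ array and the highest Control array were nearly equal. The increase of 0.27 ± 0.08 (SE; adjusted p 0.044 in limma) was as large without Control arrays 1 and 2, at 0.32, but not called (adjusted p 0.13). The other probe set of Atp5d gave 0.18 (adjusted p 0.36 in limma when every probe set was tested). Atp5e, the epsilon subunit beside delta in the stalk, was 1268, 1217 and 998 against 1459, 1341 and 1283. Its change of -0.23 was not called (adjusted p 0.10 in limma). Atp5pb, the b subunit of the peripheral stalk, had the largest value of the complex, 0.35, and was not called either (adjusted p 0.067 in limma). Without Control arrays 1 and 2 the change was 0.01 for Atp5pb and -0.15 for Atp5e. With every probe set tested, dimmer ones of Atp5a1 and Atp5g2 were called lower. They gave -0.47 and -0.40 (adjusted p 0.023 and 0.0043 in limma), and the brightest gave 0.05 and -0.20. The other dimmer probe sets of the complex were not called.

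Atp5g1, Atp5g2 and Atp5g3 encode the same mature c subunit of the proton-driven ring, and their values ran apart in MLL-NRIP3. Atp5g2 was 1279, 1271 and 1182 in RictorΔ/Δ arrays against 1622, 1364 and 1316 in Control arrays, and Atp5g3 was 4185, 4064 and 4270 against 3705, 3375 and 3971. Both pairs of groups were apart, in opposite directions. Neither was called, with changes of -0.20 and 0.18 (adjusted p 0.11 and 0.079 in limma). Without Control arrays 1 and 2 these changes were -0.08 and 0.07. Atp5g1 was 811, 792 and 537 against 604, 582 and 610, with overlap. In MLL-AF9 Atp5g2 was also lower on every RictorΔ/Δ array (873, 847 and 847 against 930, 899 and 922), at -0.10.

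The third comparison sets the 2 responses against each other. In the difference of responses, MLL-NRIP3 minus MLL-AF9, none of the 88 genes was called, against 4.31% of all genes, and 14 had an unadjusted p under 0.05, against 18.7%. The smallest adjusted p belonged to Ndufv3 (0.059) and Ndufa4 (0.064). The median difference was 0.11, 63 of 88 were above 0 (51.4% of all genes), and without Control arrays 1 and 2 the median was 0.02. Of the genes with groups apart in both models, Cox5a was higher and Atp5g2 lower in RictorΔ/Δ cells of each, and Ndufv3 ran in opposite directions.

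Other genes of the pathway were read from lists of electron carriers, assembly factors, citric acid cycle enzymes, carriers and regulators of mitochondrial biogenesis. None of the genes tested in these 5 lists was called in MLL-AF9 by the fit over all arrays. Over that model's own arrays, Chdh and Slc25a4, both described below, were called lower. In MLL-NRIP3, 4 of 17 electron carriers and donors were called, 2 in each direction (23.5%, against 13.7% of all genes). Without Control arrays 1 and 2, and likewise over the 6 MLL-NRIP3 arrays alone, Chdh was the single call of the 17. Cyc1, cytochrome c1 of complex III, whose symbol falls outside the rule, rose by 0.39 (1079, 1086 and 1050 in RictorΔ/Δ arrays against 829, 755 and 870 in Control arrays; adjusted p 0.0085 in limma). Etfa, a subunit of the electron transfer flavoprotein of fatty acid oxidation, rose by 0.49. Chdh, choline dehydrogenase, fell with a change of -2.32 (11.0, 6.52 and 27.1 against 117, 284 and 64.7), and Coq8a, which acts in ubiquinone synthesis, fell with -0.54. Without Control arrays 1 and 2 the changes of Cyc1, Etfa, Chdh and Coq8a were 0.30, 0.30, -1.44 and -0.14. In MLL-AF9 the change of Chdh was -0.80 (adjusted p 0.00011 in limma over the own arrays).

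Of 38 assembly factors in MLL-NRIP3, Cox16, for complex IV, and Timmdc1, for complex I, rose by 0.50 and 0.49. The median of that list was 0.10. Of 16 citric acid cycle genes, Idh3a, a subunit of isocitrate dehydrogenase, rose by 0.56, and Pdha1, a pyruvate dehydrogenase subunit that feeds the cycle, fell with -0.31. Of 13 carriers, Slc25a4, an ADP and ATP exchanger, rose by 0.82, while Slc25a12, an aspartate and glutamate carrier, and Atpif1, an inhibitor of the ATP synthase, fell with -0.68 and -0.48. Of 17 biogenesis regulators, the mitochondrial transcription factor genes Tfam and Tfb1m rose by 0.41 and 0.37. The shares called were 5.26% of assembly factors, 12.5% of citric acid cycle genes, 23.1% of carriers and 11.8% of biogenesis regulators. None of these genes was called over the 6 MLL-NRIP3 arrays alone, and without Control arrays 1 and 2 Atpif1 was the single call, at -0.71 (adjusted p 0.011 in limma). In MLL-AF9 Slc25a4 was lower on every RictorΔ/Δ array, at -0.39 (adjusted p 0.55 in limma over all arrays and 0.0029 over the own arrays).

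Some marker genes moved with the MLL-NRIP3 groups, where 13.7% of all genes were called (5.95% higher and 7.76% lower). Of 22 immediate early and stress genes 16 were called higher, with a median log2 change of 1.20, and their summed intensity was 12720 to 23520 in RictorΔ/Δ and 9630 to 10180 in Control arrays. Of 20 mature neutrophil genes 8 were called lower, with a median of -0.63, while 4 of the 20 changes were above 0, up to 0.88. The sum of the 20 was 4427 to 9049 in RictorΔ/Δ and 9210 to 26990 in Control arrays. Of 7 mast cell and eosinophil genes Cpa3, Ms4a2 and Gata2 were called higher, at 2.70, 1.41 and 0.51. Of the 7 changes 4 were above 0, with a median of 0.03 and a lowest value of -0.30. The list's sum was 799 to 2250 in RictorΔ/Δ and 616 to 628 in Control arrays. The lymphoid gene Ighm was called lower, at -3.10, the only call of its 12, whose median was 0.02. Of 14 leukemia progenitor genes 5 were called higher and 2 lower, and 7 of the 14 changes were above 0. Kit was among the higher ones (572, 406 and 593 in RictorΔ/Δ against 307, 390 and 326 in Control arrays), and Flt3 and Spi1 were the lower ones, at -1.17 and -0.58 (adjusted p 0.0061 and 0.012 in limma). Without Control arrays 1 and 2, 6 immediate early and stress genes were called higher and 4 mature neutrophil genes lower, and Cpa3, Ms4a2, Ighm and Flt3 were still called in the same direction, while Gata2, Kit and Spi1 were not called. Their part in the changes of the oxidative phosphorylation genes was not tested.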

How the data were processed

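Sorted leukemia cells of 4 groups of 3 samples were measured on 12 Affymetrix arrays. The deposited file holds a linear intensity for each probe set on each array. Neither the labels nor the file say how the authors summarised the probes, corrected the background or normalized. By the platform annotation 34958 of 45101 probe sets had 1 gene symbol, 932 several and 9211 none, and the first kind was used. Each gene was read by its brightest probe set. Genes whose geometric mean was below 7.58 (40th percentile of the whole table) were dropped. A model with 4 group means was fitted to log2(intensity + 16) of the 12 arrays in limma 3.58.1 under R 4.3.3, by lmFit and eBayes with a mean-variance trend; it leaves 8 residual degrees of freedom. P-values of 2-sided tests were corrected by Benjamini-Hochberg over 12582 genes, and genes under 0.05 were called. This scale understates fold changes of dim genes. "Own arrays" means the same fit on 1 model's 6 arrays (4 residual degrees of freedom). An exact permutation test of 3 against 3 cannot go below p = 0.1 and was not used. The number of arrays limits the precision. The code was tested on simulated data with 200 of 12582 genes changed. There the fit over all arrays made more false calls in MLL-NRIP3 than its threshold of 0.05 allows. Of its 257 calls, 121 were false (47.1%). Over that model's own arrays 7 of 101 calls were false (6.93%), a far smaller share though still above the threshold.

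Named genes were those called, the highest, lowest and brightest of each complex, the tissue-restricted isoforms with their counterparts and the X-linked ones, plus up to 4 called genes of each other list. Genes named beyond this rule (Ndufs1, Ndufs7, Atp5a1, Cox17, Mrps6, Mrpl13, Mrpl24 and Mrps17) were chosen after their values were seen. The members and lists were chosen with earlier results of these data known. Promoters are from RefSeq GRCm38.p6. Alternatives in normalization, filter, pseudocount, probe sets, moderation, weights, block, hybridization-control covariate and left-out arrays are given in the closing section. Tables and figures used Python 3.11.15, pandas 2.3.3 and matplotlib 3.10.9.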

Additional observations from a re-analysis of the deposited data

Results flagged for a closer look

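Ndufv3, the complex I accessory subunit described above, moved in opposite directions on all arrays of the 2 models, and its difference of responses, MLL-NRIP3 minus MLL-AF9, was -0.55 (adjusted p 0.059 in limma, not called). Cox17, a copper chaperone of complex IV, did the same with a difference of 0.38 (adjusted p 0.11 in limma): it was 846, 793 and 667 in RictorΔ/Δ against 662, 609 and 649 in Control arrays of MLL-NRIP3, and 496, 501 and 475 against 513, 568 and 531 in MLL-AF9. Atpif1, the ATP synthase inhibitor, differed by -0.58 (adjusted p 0.076 in limma), and Mrps6, of the small mitochondrial ribosome subunit, by 0.43 (adjusted p 0.15 in limma), each with groups apart in opposite directions.

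The difference of responses was called for 2 further genes of these lists, and for 4.31% of all genes. Slc25a4, the ADP and ATP exchanger, was 1244, 1115 and 734 in RictorΔ/Δ against 479, 528 and 711 in Control arrays of MLL-NRIP3, and 351, 345 and 374 against 507, 456 and 454 in MLL-AF9, a difference of 1.21 (adjusted p 0.015 in limma). Mrpl44, of the large mitochondrial ribosome subunit, differed by -0.55 (adjusted p 0.038 in limma). Among the genes given as checks, Kit differed by 0.98 (adjusted p 0.026 in limma) and Xist by 4.51 (adjusted p 0.00049 in limma). The MLL-AF9 groups differ in sex. Without Control arrays 1 and 2 the change within MLL-NRIP3 was 0.49 for Slc25a4, -0.27 for Mrpl44 and 0.64 for Kit.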

How the results depend on the processing

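In MLL-AF9 the count of 0 genes called became 1 (Ndufv3) with the model's own arrays and 1 with array weights. Of all genes 8.26% and 8.39% were called in those fits. The count stayed at 0 under the other alternatives, each left-out array included. In MLL-NRIP3 the count of 10 was 16 member probe sets when every probe set was tested on its own, 6 without a filter on dim genes, 6 without a trend in the prior variance, 36 with array weights, 0 with the model's own arrays, 0 when Control arrays 1 and 2 were both dropped, and 1 when the spiked hybridization signal was a covariate. Of all genes, 26.5% were called with array weights, 8.13% without the filter and 13.7% without the trend. The shares were 1.56% over the own arrays and 3.97% with the covariate. With the replicate number as a block the count was 3, where 10.5% of all genes were called. The correlation of same-numbered deviations was between -0.14 and 0.06. This shows no pairing by number, and with 3 arrays per group it cannot exclude one. Leaving out 1 array gave 1 to 26 calls. The count was 1 without MLL-NRIP3 Control array 2, 2 if array 1 was left out instead, and 26 if array 3 was. Of all genes 8.83%, 8.4% and 24.3% were called in these fits. The count was 3, 4 and 16 without RictorΔ/Δ arrays 1, 2 and 3 (7.13%, 10.8% and 15.9% of all genes). It was 4 to 6 without any 1 MLL-AF9 array (10% to 10.7% of all genes). In the difference of responses the count of 0 was 1 with every probe set, 1 with quantile normalization and 25 with array weights. It was 0 to 10 when 1 array was left out (10 without MLL-NRIP3 Control array 3, 7 without RictorΔ/Δ array 3). Of all genes 4.86% were called there with quantile normalization and 20% with array weights. The shares were 11.1% without Control array 3 and 7.53% without RictorΔ/Δ array 3. The members' median change in MLL-NRIP3 was 0.205 with array weights, and the median difference of responses was 0.19 with array weights and 0.017 when both Control arrays were dropped. The cause of these shifts was not tested. Of the 10 calls in MLL-NRIP3, Ndufa4 was lost under 3 of 27 alternatives, and Cox5a and Atp5d under 19. Those that ended the Ndufa4 call were the model's own arrays, dropping both Control arrays 1 and 2, and the hybridization covariate. Leaving out an MLL-AF9 array, also among the 27, alters the error of the MLL-NRIP3 changes and not their size.

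Signs turned for named genes that were not called; of these, Ndufaf7 (-0.34) and Sdhd (0.20) in MLL-NRIP3, and Sdhd (0.32) in the difference of responses, were the ones over 0.15 in size. In MLL-AF9 Sdhc was 0.024 when a gene's probe sets were averaged, and with 1 array left out Ndufaf1 ranged from -0.078 to 0.206, Sdhc from -0.058 to 0.008, Uqcrq from -0.018 to 0.042 and Cycs from -0.02 to 0.114. In MLL-NRIP3 Ndufaf7 was 0.026 with the hybridization covariate, Sdhd -0.17 when Control arrays 1 and 2 were dropped and -0.22 with the covariate, and Sdhc 0.028 with array weights. Cycs there was -0.009 with averaged probe sets, -0.079 when both Control arrays were dropped, -0.117 with the covariate and -0.077 to 0.059 with 1 array left out. In the difference of responses Sdhd was -0.051 when both Control arrays were dropped and -0.057 with the covariate, Sdhc 0.048 with array weights and -0.119 to 0.016 with 1 array left out, and Cycs -0.123 to 0.033 with 1 array left out. Uqcrh there was 0.008 with quantile normalization, 0.049 with averaged probe sets, 0.09 with array weights, 0.104 when both Control arrays were dropped, 0.104 with the covariate and -0.068 to 0.098 with 1 array left out.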

Other observations

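Mitochondrial ribosome genes, whose products make the subunits encoded in mitochondrial DNA, were not part of the comparisons above. None of 76 tested was called in MLL-AF9 (2 had an unadjusted p under 0.05 in limma, and none was called over that model's own arrays), with a median log2 change of 0.03. In MLL-NRIP3, 7 of the 76 were called (9.21%, against 13.7% of all genes). Mrps25, Mrpl13, Mrpl24 and Mrps17 rose by 0.65, 0.41, 0.40 and 0.32, while Mrpl33, Mrpl44 and Mrps24 fell with -0.46, -0.43 and -0.40. The median was 0.02, and none of the 76 was called over the 6 MLL-NRIP3 arrays alone. Without Control arrays 1 and 2 the median was -0.035 and none was called.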
